A study of Mus musculus with 13 samples.

Results

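A set of 7 genes for a potassium channel, a G protein subunit and proteins of the actin cytoskeleton and of intracellular signaling, Kcnt2, Gna14, Arhgap24, Coro2b, Gsn, Pik3r1 and Asb4, were followed in the developing mouse spine. They were selected on these same arrays, for a large difference between presumptive intervertebral disc (IVD) and vertebrae or between Tgfbr2 mutant and control tissue. All probe sets whose annotation names 1 of these genes and no other were kept, which gave 20 probe sets for 7 genes out of 45037 probe sets and 18193 named genes on the array. Because measured values chose the genes, their differences in all 4 comparisons are given as a description with no test.

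RNA was taken by laser capture from the lumbar region of E13.5 embryos and hybridized to Affymetrix mouse expression arrays after a 2-cycle amplification of 50 ng. Mutant IVD (4 arrays) carried Cre+;Tgfbr2lox/lox, control IVD (3 arrays) Cre-;Tgfbr2lox/wt, mutant vertebrae (3 arrays) a genotype labelled Cre+;Tgrbr2lox.lox, and control vertebrae (3 arrays) Cre-;Tgfbr2lox/wt. Every embryo thus carried a floxed Tgfbr2 allele, and the controls were heterozygous for it and lacked Cre. In the mutants Cre was driven by the Col2a promoter, to remove exon 2 of Tgfbr2, a receptor for TGF-β, in sclerotome. Both the vertebral bodies and the IVD arise from this tissue. Both control tissues were cut from the same mice, the vertebrae next to the IVD. The methods describe the same collection for mutant embryos, so mutant IVD and mutant vertebrae may share embryos too. Each deposited value is a log2 signal relative to the median of the 13 arrays for that probe set, so it has no meaning as an absolute level, and levels were not compared between genes. In RNA from captured tissue, fewer cells of a type and less RNA per cell cannot be told apart.

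Several arrays held transcripts of neighbouring tissues or stood apart from their group. The mean of 10 liver genes lay between 2.29 and 4.58 in control IVD 1, control vertebrae 1, mutant IVD 3 and mutant IVD 4, and at most at 0.28 in the other 9 arrays. Neuronal genes (12) were highest in mutant IVD 3, with a mean of 3.08, followed by 2.56 in control vertebrae 3. Skeletal muscle genes (12) averaged 2.03 in mutant IVD 4 and 2.01 in control IVD 1. Mutant IVD 1, 2 and 4 and mutant vertebrae 1 and 2 had Y-linked transcripts and little Xist, while mutant IVD 3, mutant vertebrae 3 and the 6 control arrays had the reverse, so that sex and genotype cannot be told apart for most of the samples. The tissue labels were matched by marker genes. Of 12 cartilage genes 11 had a lower mean in control IVD than in control vertebrae, with array means from -1.39 to -0.03 in control IVD and from 0.02 to 0.96 in control vertebrae. Of 12 fibrous tissue genes 10 had a higher mean in control IVD, with array means from 0.23 to 1.23 in control IVD and from -0.60 to -0.27 in control vertebrae. The study had listed Col6a1, Col6a2, Col6a3 and Fmod, all in this list, as enriched in IVD on these same arrays. The fibrous tissue list is therefore no independent check of the labels. The most variable Tgfbr2 probe set, 1426397_at, had 1.31, 0.48, 0.00 and 0.30 in mutant IVD, against 0.78, 0.99 and -0.52 in control IVD, and -2.10, -0.68 and -0.17 in mutant vertebrae, against 0.00, -0.02 and -0.42 in control vertebrae. The genotypes overlapped in each tissue. Whether that probe set reads the deleted exon is not given in the sources used here, so it does not check the deletion.

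The IVD forms between the vertebrae from sclerotome, and its outer ring, the annulus fibrosus, stays fibrous while the vertebral bodies become cartilage. Cells of such a tissue sense load and matrix through the actin cytoskeleton, whose filaments are built, bundled and cut by actin-binding proteins. Potassium channels set the membrane potential, heterotrimeric G proteins carry signals from receptors at the membrane, and phosphoinositide 3-kinase (PI3K) passes growth factor signals to Akt.

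Promoter sequence was taken from RefSeq (GRCm38.p6) as 300 bases around an annotated start, most of them upstream. Entries were found for 10 starts of 6 of the genes. Shown are the starts of Kcnt2 and Gna14, the genes with the largest excess in control IVD over control vertebrae, and both starts of Asb4, which had the opposite order. Pik3r1, which also had the opposite order in its leading probe set, is not shown. Kcnt2 is at chr1:140245468-140245767 on the + strand, Gna14 at chr19:16435417-16435716 on the + strand, and the Asb4 starts are at chr6:5383136-5383435 and chr6:5390160-5390459 on the + strand. Capitals mark matches, on either strand, to the Smad-type motif CAGAC or to ACAAAG, a core motif of Sox proteins. No match overlapped another in these sequences.
Kcnt2: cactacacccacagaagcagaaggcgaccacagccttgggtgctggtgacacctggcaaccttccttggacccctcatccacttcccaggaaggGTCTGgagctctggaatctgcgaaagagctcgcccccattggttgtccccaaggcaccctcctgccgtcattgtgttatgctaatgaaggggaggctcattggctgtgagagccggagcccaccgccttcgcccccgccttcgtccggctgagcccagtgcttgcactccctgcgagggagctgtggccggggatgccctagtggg
Gna14: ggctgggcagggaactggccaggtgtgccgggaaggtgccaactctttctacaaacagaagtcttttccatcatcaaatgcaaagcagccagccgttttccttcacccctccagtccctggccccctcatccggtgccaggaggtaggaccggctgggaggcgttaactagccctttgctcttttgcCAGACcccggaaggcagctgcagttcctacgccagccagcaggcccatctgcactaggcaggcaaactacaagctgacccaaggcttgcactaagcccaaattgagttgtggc
Asb4, start 1: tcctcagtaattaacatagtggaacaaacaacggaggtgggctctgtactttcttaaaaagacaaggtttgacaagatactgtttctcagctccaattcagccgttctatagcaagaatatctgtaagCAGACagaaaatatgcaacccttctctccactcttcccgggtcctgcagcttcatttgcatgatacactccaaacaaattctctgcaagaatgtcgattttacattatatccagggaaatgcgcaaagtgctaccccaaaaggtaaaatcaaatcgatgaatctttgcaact
Asb4, start 2: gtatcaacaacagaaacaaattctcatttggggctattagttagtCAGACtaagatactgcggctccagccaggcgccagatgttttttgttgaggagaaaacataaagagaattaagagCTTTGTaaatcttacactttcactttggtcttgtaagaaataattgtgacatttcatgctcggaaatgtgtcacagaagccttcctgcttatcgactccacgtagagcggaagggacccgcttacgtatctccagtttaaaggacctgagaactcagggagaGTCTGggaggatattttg
The letters CAGAC occurred in 6 of the 10 starts, beside 49.6% of 32851 promoters of the same length. All sequences shown hold them, while the starts without them, those of Coro2b and Pik3r1 and the first of Gsn, are not shown. ACAAAG occurred in 2 of the 10 starts, Asb4 start 2 and Pik3r1 start 2, beside 18.7% of all promoters. The AP-1 motif TGANTCA occurred in 0 of the 10, beside 7.81% of all promoters. A match describes the letters and is no evidence of binding. Both Asb4 starts were poor in G and C (40.3% and 42.3%, median of all promoters 52.7%), while Kcnt2 had 62.7% and Gna14 58%. The first Pik3r1 start held 75.7% G and C with 34 CpG, against a median of 7 CpG over all promoters.

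Kcnt2 encodes Slick, a potassium channel opened by intracellular sodium, and lies at chr1:140245657-140614045. It was the gene with the largest difference between the control tissues. Its single probe set, 1459971_at, had 2.53, 1.23, -0.54 and 0.81 in mutant IVD 1 to 4, 2.99, 3.25 and 2.88 in control IVD, -0.43, -0.87 and -0.37 in mutant vertebrae, and 0.00, -0.49 and -0.41 in control vertebrae. All control IVD arrays lay above the other 10, the vertebrae of both genotypes lay together, and mutant IVD was spread between them. Control IVD exceeded control vertebrae by 3.34 (SE 0.19), a 10.1-fold difference, with 2.99, 3.74 and 3.29 in the 3 control pairs of the same number. Mutant IVD was below control IVD by a log2 difference of -2.03 (SE 0.64), a 4.09-fold difference with no overlap. Between mutant and control vertebrae the difference was -0.26 (SE 0.22) and the groups overlapped. The excess of mutant IVD over mutant vertebrae was 1.57 (SE 0.65), and these groups overlapped because mutant IVD 3 was at the level of the vertebrae.

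Gna14 encodes an alpha subunit of the Gq family, which activates phospholipase C beta, and lies at chr19:16435667-16610818. The leading probe set, taken as the one with the largest SD over the 13 arrays, was 1447791_s_at. It had 1.69, 1.87, -1.12 and 1.34 in mutant IVD, 2.0, 2.88 and 2.25 in control IVD, -0.45, -0.94 and -0.92 in mutant vertebrae, and -0.31, 0.00 and -1.25 in control vertebrae. The pattern was that of Kcnt2, with control IVD highest, the vertebrae lowest and mutant IVD 3 apart from the other 3 mutant IVD arrays. Control IVD exceeded control vertebrae by 2.90 (SE 0.46), or 7.45-fold. Mutant IVD differed from control IVD by -1.43 (SE 0.74), a 2.70-fold lower signal with no overlap, and by -0.75 without mutant IVD 3. Mutant IVD exceeded mutant vertebrae by 1.71 (SE 0.72) with overlap, and mutant and control vertebrae differed by -0.25 (SE 0.41). The other probe sets of the gene, 1420385_at and 1449848_at, correlated with the leading one over the 13 arrays (r = 0.958 and 0.90, arrays of the same mice included) and had control IVD above control vertebrae by 2.43 and 2.62 and mutant IVD below control IVD with differences of -1.55 and -1.55, again with no overlap.

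Arhgap24 encodes FilGAP, a GTPase-activating protein for Rac that binds filamin A, and lies at chr5:102207198-102905035. Its probe set 1424842_a_at had 0.54, 0.67, -1.07 and -0.24 in mutant IVD, 1.32, 2.16 and 0.93 in control IVD, -1.93, -0.42 and 0.12 in mutant vertebrae, and 0.00, -1.24 and -1.53 in control vertebrae. Control IVD again lay above all other arrays, and the remaining groups overlapped each other. The excess of control IVD over control vertebrae was 2.39 (SE 0.59), or 5.26-fold, and mutant IVD differed from control IVD by -1.49 (SE 0.54), or 2.81-fold. Mutant IVD exceeded mutant vertebrae by 0.72 (SE 0.74), which was 0.12 without mutant vertebrae 1 and 1.15 without mutant vertebrae 3, and mutant and control vertebrae differed by 0.19 (SE 0.77). The second probe set, 1430712_at, did not share this pattern (r = -0.327 with the first), and its control tissues differed by 0.21 (SE 0.46) with overlap.

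**Figure D1:**
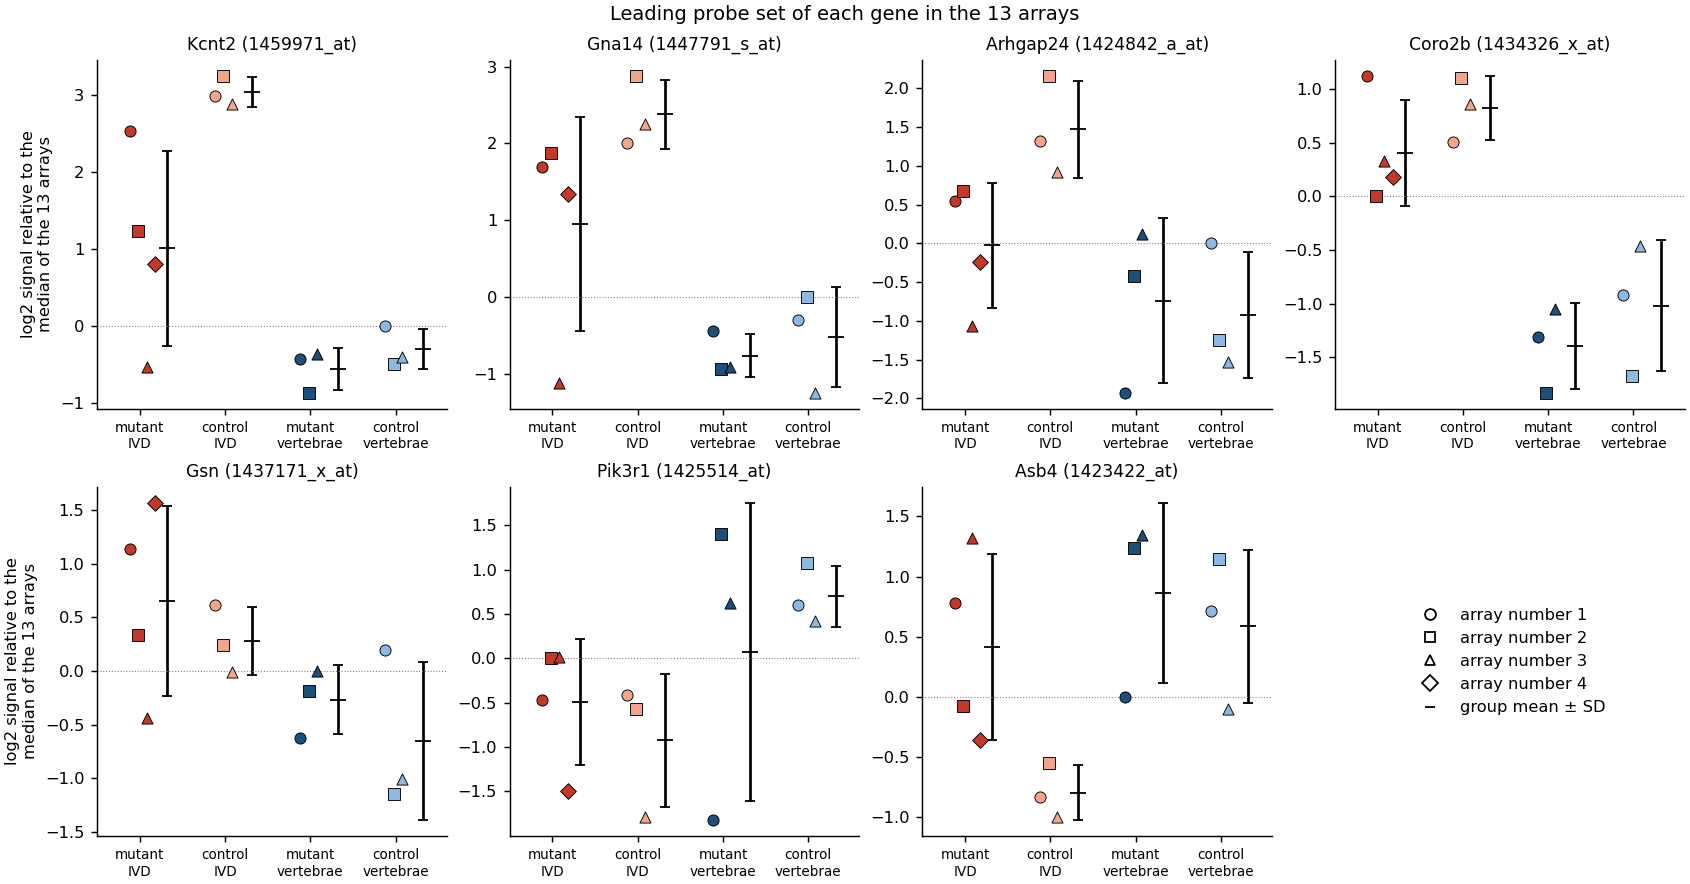
Log2 signal of the leading probe set of each gene in every array, relative to the median of the 13 arrays, with groups on the horizontal axis, symbols for the array number and bars for the group mean and SD. Control IVD lies above every other array for Kcnt2, Gna14 and Arhgap24, and mutant IVD 3 lies at or below -0.54 in these 3 panels.

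Coro2b encodes a coronin, an actin-binding protein of the cell cortex, and lies at chr9:62419490-62537044. Its probe set 1434326_x_at separated the tissues in both genotypes. It had 1.12, 0.00, 0.33 and 0.18 in mutant IVD, 0.51, 1.10 and 0.86 in control IVD, -1.31, -1.83 and -1.05 in mutant vertebrae, and -0.92, -1.67 and -0.46 in control vertebrae. No IVD array overlapped a vertebrae array. The excess of control IVD over control vertebrae was 1.84 (SE 0.39), or 3.59-fold, and that of mutant IVD over mutant vertebrae was 1.80 (SE 0.34), or 3.49-fold. Between genotypes the differences were -0.41 (SE 0.30) in IVD and -0.38 (SE 0.42) in vertebrae, with overlap in each. The second probe set, 1434755_at, stayed between -0.53 and 0.45 in all 13 arrays and differed by 0.16 (SE 0.21) between the control tissues. The suffix x marks a probe set some of whose probes can also bind other transcripts, so that the assignment of 1434326_x_at to Coro2b is uncertain.

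Gsn encodes gelsolin, which severs actin filaments and caps their ends, and lies at chr2:35256359-35307902. It had 6 probe sets, 4 of them with the suffix x. The leading one, 1437171_x_at, had 1.13, 0.33, -0.44 and 1.56 in mutant IVD, 0.62, 0.24 and -0.01 in control IVD, -0.63, -0.18 and 0.00 in mutant vertebrae, and 0.19, -1.14 and -1.0 in control vertebrae. The groups overlapped in all 4 comparisons, and control vertebrae 1, an array with liver transcripts, lay above the other vertebrae. Control IVD exceeded control vertebrae by 0.93 (SE 0.46), and by 1.36 without control vertebrae 1. Mutant IVD exceeded mutant vertebrae by 0.92 (SE 0.48). In the 5 probe sets that correlated with each other (r with the leading one 0.864 to 0.975), the excess in control IVD ran from 0.56 to 1.06, and 1456312_x_at was the 1 probe set in which these groups did not overlap. Mutant IVD was above control IVD by 0.26 to 0.37 in these 5, and mutant vertebrae above control vertebrae by 0.28 to 0.53, each with overlap. The remaining probe set, 1456568_at, varied little (SD 0.19 over 13 arrays) and correlated with the leading one at r = -0.209.

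Pik3r1 encodes the p85 alpha regulatory subunit of PI3K, with shorter proteins made from downstream starts, and lies at chr13:101680761-101768217. Its 4 probe sets gave different patterns. In 1425514_at the values were -0.47, 0.00, 0.02 and -1.50 in mutant IVD, -0.42, -0.57 and -1.79 in control IVD, -1.82, 1.40 and 0.63 in mutant vertebrae, and 0.60, 1.08 and 0.42 in control vertebrae. Control IVD lay below control vertebrae with a difference of -1.62 (SE 0.48), while mutant vertebrae 1 stood far below the other mutant vertebrae. Mutant vertebrae minus control vertebrae was -0.63 (SE 0.99) with mutant vertebrae 1 and 0.32 without it. The values of 1438682_at were -0.18, 0.82, 0.33 and -0.19 in mutant IVD, -0.49, -0.81 and -1.48 in control IVD, 0.02, 0.00 and 0.49 in mutant vertebrae, and -0.01, 0.09 and 0.21 in control vertebrae. Here control IVD lay below every other array. The difference was -1.02 (SE 0.30) for control IVD against control vertebrae, 1.12 (SE 0.38) for mutant IVD against control IVD, and 0.03 (SE 0.29) for mutant IVD against mutant vertebrae. In the other probe sets, 1425515_at and 1451737_at, no difference in the 4 comparisons was larger than 0.61, and 1425515_at correlated with 1425514_at with r = 0.0566.

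Asb4 encodes an ankyrin repeat protein with a SOCS box, a substrate adaptor for Cullin 5 ubiquitin ligases, and lies at chr6:5383386-5433022. Probe set 1423422_at had 0.78, -0.07, 1.32 and -0.36 in mutant IVD, -0.83, -0.55 and -1.0 in control IVD, 0.00, 1.24 and 1.35 in mutant vertebrae, and 0.72, 1.15 and -0.10 in control vertebrae. Control IVD was the lowest group and overlapped no other. Its difference from control vertebrae was -1.38 (SE 0.39), a 2.61-fold lower signal, with -1.55, -1.70 and -0.90 in the 3 control pairs of the same number. Mutant IVD was above control IVD by 1.21 (SE 0.41), or 2.32-fold, and mutant IVD and mutant vertebrae differed by -0.44 (SE 0.58) with overlap. The second probe set, 1433919_at, followed the first (r = 0.936) with control IVD below control vertebrae by a difference of -1.08 (SE 0.24), but in it mutant IVD overlapped control IVD, with a difference of 0.66 (SE 0.48).

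Over all 20 probe sets, control IVD was above control vertebrae with no overlap in 7 and below it with no overlap in 4, where 3.54% and 3.9% of all probe sets did so. Mutant IVD was above control IVD with no overlap in 2 and below it in 5, where 3.68% and 0.937% of all probe sets did so. Mutant vertebrae were above control vertebrae with no overlap in 1 (Pik3r1 1425515_at) and below them in 0, beside 3.63% and 1.93% of all probe sets. Mutant IVD was above mutant vertebrae with no overlap in 1 (Coro2b 1434326_x_at) and below in 0, beside 3.41% and 3.21% of all probe sets. Since the genes were selected on these differences, nothing is read from these counts. For the leading probe sets, the excess of IVD over vertebrae in mutants minus that in controls was -1.77 for Kcnt2, -1.19 for Gna14 and -1.68 for Arhgap24, 1.07 for Pik3r1 and 0.94 for Asb4, and -0.038 for Coro2b and -0.015 for Gsn. These values rested partly on single arrays and were not tested. Gna14 gave -0.50 without mutant IVD 3 and -0.13 with group medians, and Kcnt2 gave -1.07 without the arrays with liver transcripts. Arhgap24 lay between -2.39 and -1.13 over the alternatives. Pik3r1 gave 0.12 without mutant vertebrae 1 and 0.31 with group medians, and Asb4 gave 0.51 without mutant vertebrae 1.

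**Figure D2:**
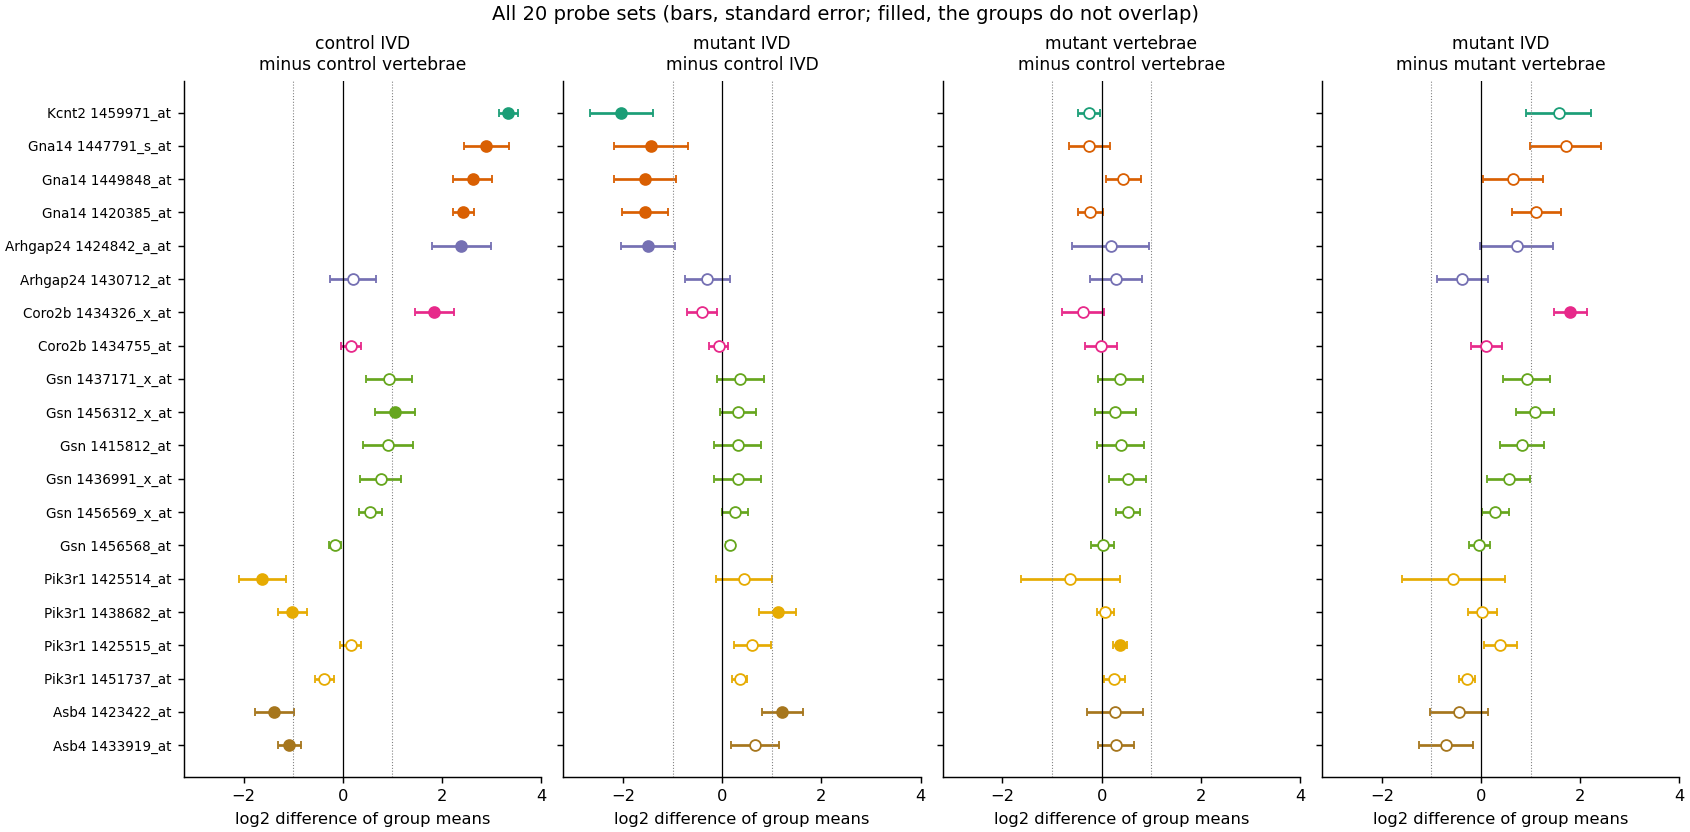
Log2 difference of group means for the 20 probe sets in 4 comparisons, with bars for the standard error, filled symbols where the groups do not overlap and dotted lines at -1 and 1. Filled symbols lie on both sides of 0 for control IVD minus control vertebrae, 11 in all, and there is 1 each for mutant vertebrae minus control vertebrae and for mutant IVD minus mutant vertebrae.

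The result in mutant IVD leaned on array 3, which had the highest neuronal mean of all arrays and, at -1.08, the lowest fibrous tissue mean of the IVD arrays. Its cartilage mean, 0.11, was the highest of the IVD arrays and lay within the range of control vertebrae (0.02 to 0.96). It was also the only mutant IVD array with the sex-linked pattern of the control arrays. Without mutant IVD 3, the difference from control IVD was -1.52 for Kcnt2, -0.75 for Gna14, -1.14 for Arhgap24 and 0.91 for Asb4. Without the 4 arrays with liver transcripts, which left 2 mutant IVD and 2 control IVD arrays, these differences were -1.18 for Kcnt2, -0.79 for Gna14, -0.93 for Arhgap24 and 1.13 for Asb4. Fibrous tissue genes moved with the first 3 of these genes. Correlations of the leading probe sets with the mean of 12 fibrous tissue genes were taken over the 13 arrays, which share groups and mice. They were r = 0.811 for Kcnt2, 0.839 for Gna14, 0.837 for Arhgap24, 0.679 for Coro2b and 0.709 for Gsn. For Pik3r1 and Asb4 r was -0.21 and -0.419. Of the fibrous tissue genes 9 of 12 had a lower mean in mutant than in control IVD (median difference -0.29), with array means from -1.08 to 1.16 in mutant IVD and from 0.23 to 1.23 in control IVD. All 12 neuronal genes had a higher mean in mutant IVD than in control IVD (median difference 0.81), with array means from -0.70 to 3.08 in mutant IVD and from -0.87 to 0.75 in control IVD. The fibrous tissue mean was 0.66 in mutant IVD 2, 0.66 in mutant IVD 4 and 0.65 in control IVD 1. Kcnt2 had 1.23, 0.81 and 2.99 in these arrays, and Gna14 1.87, 1.34 and 2.0. That mean was 1.16 in mutant IVD 1 and 1.23 in control IVD 2, where Kcnt2 had 2.53 and 3.25, and Gna14 1.69 and 2.88. Mutant IVD 4 and control IVD 1 also held liver and skeletal muscle transcripts. The part of fibrous tissue, cartilage, neuronal RNA and sex in these differences was not tested.

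**Figure D3:**
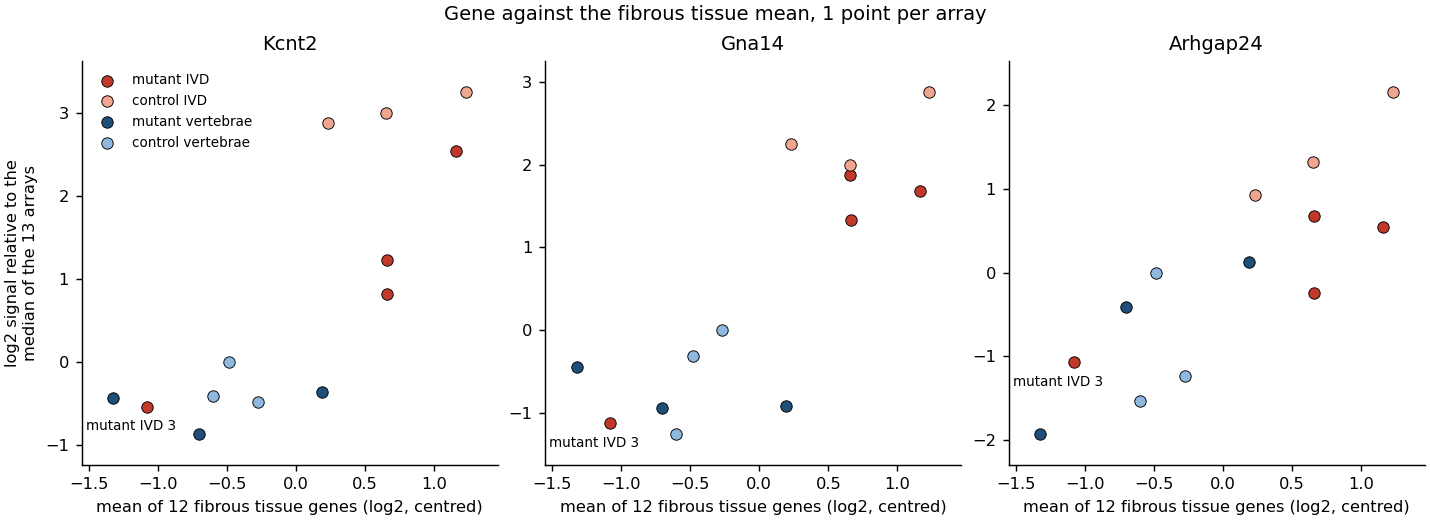
Log2 signal of Kcnt2, Gna14 and Arhgap24 (vertical axes) against the mean centred log2 value of 12 fibrous tissue genes (horizontal axes), 1 point per array and colours for the groups. Mutant IVD 3, with a fibrous tissue mean of -1.08, lies among the vertebrae in all 3 panels, and the control IVD arrays lie highest.

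Correlation with the mean of 12 cartilage genes was -0.621 for Kcnt2, -0.653 for Gna14, -0.439 for Arhgap24, -0.699 for Coro2b and -0.749 for Gsn, but 0.601 for Pik3r1 and 0.688 for Asb4, over the same 13 arrays. Between genotypes in IVD, 8 of the 12 cartilage genes had a lower mean in mutant than in control IVD (median difference -0.27), with array means from -1.96 to 0.11 in mutant IVD and from -1.39 to -0.03 in control IVD. Among the genes themselves, Kcnt2 correlated with Gna14 at r = 0.936, with Arhgap24 at 0.856 and with Coro2b at 0.845. Asb4 correlated with Pik3r1 at r = 0.706 and with Kcnt2 at -0.708. These values describe 13 arrays in 4 groups, and the group means contribute to all of them.

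Other genes with the most similar pattern over the 13 arrays were found for each leading probe set. For Kcnt2 they were Barx1 (r = 0.945), a homeobox factor, Gdf5 (0.941), a growth factor of developing joints, and Gne (0.939). Gna14 was closest to Gdf5 (0.97), to Hhip (0.962), which binds hedgehog ligands, and to Hs3st3a1 (0.961), a heparan sulfate sulfotransferase. Gdf5 probe set 1419139_at had 2.58, 2.45, -1.07 and 0.76 in mutant IVD, 2.01, 3.23 and 2.82 in control IVD, -0.07, -0.99 and -0.78 in mutant vertebrae, and -0.57, 0.00 and -0.61 in control vertebrae. As in Kcnt2 and Gna14, mutant IVD 3 lay with the vertebrae, but mutant IVD 1 and 2 were within the range of control IVD. The genes closest to Arhgap24 were Prrg3 (0.928), Ugp2 (0.922) and Dsel (0.916), and those closest to Coro2b were Pfkp (0.914), Crabp2 (0.908) and Lrch2 (0.904). Gsn was most like Mylk (0.935), the myosin light chain kinase, Mvb12b (0.921) and Usp54 (0.91). Mylk probe set 1425505_at reached 2.71 and 2.92 in mutant IVD 1 and 4 and 1.89 in control IVD 1, and was between -1.49 and 0.14 in the 6 vertebrae arrays. Pik3r1 was closest to Dnajc5 (0.934), Tmem29 (0.908) and Ttc14 (0.896), and Asb4 to Stox2 (0.925), Ntm (0.91) and Pitpnc1 (0.905).

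To set the 7 genes among their relatives, 6 families that hold none of them were tested with limma, with Benjamini-Hochberg adjustment over all 45037 probe sets. The families listed 238 genes, of which 224 were measured by 540 probe sets. Between control IVD and control vertebrae 0 of the 540 passed an adjusted p of 0.05 (0% of all probe sets). An unadjusted p under 0.05 was found for 13 of the 540, beside 1105 of all 45037. In mutant IVD against control IVD 0 passed (0% of all probe sets), and 20 had an unadjusted p under 0.05, beside 1411 of all. For mutant vertebrae against control vertebrae 0 passed (0% of all probe sets), and 9 had an unadjusted p under 0.05, beside 1177 of all. In mutant IVD against mutant vertebrae 0 of the 540 passed, while 7 of all probe sets did (0.0155%). Here 67 of the 540 had an unadjusted p under 0.05, beside 3634 of all. The unequal-variance test left 0 of the 540 in each comparison, but also 0 of all 45037, so its result is not particular to the related genes.

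With the control mouse as a random block, limma called 42 of all probe sets between control IVD and control vertebrae (0.0933%), among them 1 related gene. This was Kcnk2, which encodes the mechanosensitive potassium channel TREK-1. Its probe set 1449158_at was higher in control IVD by 1.58 (SE 0.15, adjusted p = 0.033 by limma with the block, adjusted p = 1.0 without it). It had 2.03, 1.79, 0.00 and 0.16 in mutant IVD, 0.95, 1.44 and 1.03 in control IVD, -0.13, -0.46 and -0.74 in mutant vertebrae, and -0.46, -0.54 and -0.31 in control vertebrae. Every IVD array lay above every vertebrae array. Mutant IVD and control IVD overlapped and differed by -0.14 (SE 0.44), with mutant IVD 3 and 4 lowest. Kcnk2 and Kcnt2 thus shared the order of control IVD over control vertebrae, and Kcnk2 lacked the lower signal in mutant IVD 1 and 2.

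A looser threshold, a 2-fold difference or more and an unadjusted p under 0.05, was counted as a description. These limits are those of the methods of the study, whose p came from an unequal-variance test, while the counts here use limma. Control IVD exceeded control vertebrae in 6 related probe sets and lay below in 1, or 1.30% of 540, against 0.870% of all probe sets. By the unequal-variance test 3 of the 540 met these limits instead of 7, and with the control mouse as a random block 10 did. Of the 6, 4 belonged to the 72 probe sets of potassium channels, a count that was 2 by the unequal-variance test and also 2 when control vertebrae 1 was left out. Kcnh2, which encodes the hERG channel, had the smallest p of these, with an excess of 1.19 (SE 0.31, adjusted p = 1.0 by limma). Pik3r3, another regulatory PI3K subunit, was higher by 1.07, while a Gnas probe set was lower with a difference of -1.13. None of these 3 passed after adjustment.

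In mutant IVD against control IVD 3 related probe sets were higher and 1 lower at this threshold, or 0.741% against 0.644% of all. Gng2, a G protein gamma subunit, had 0.16, 1.18, 0.60 and 0.33 in mutant IVD, against -0.51, -0.43 and -0.67 in control IVD, a difference of 1.10 (SE 0.29, adjusted p = 1.0 by limma). The potassium channel Kcnd3 was higher by 1.06 and Socs2, a SOCS box protein, by 1.20, and the channel Kcnk6 differed by -1.01. For mutant vertebrae against control vertebrae 3 were lower and 0 higher, or 0.556% against 0.517% of all. These were Rgs2 (-1.42), a regulator of Gq signaling, Racgap1 (-1.26), a GTPase-activating protein of dividing cells, and Diaph3 (-1.15), a formin. Mutant vertebrae 1 was the lowest array of all 13 for each of the 3.

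Mutant IVD against mutant vertebrae gave the most. At the looser threshold 24 related probe sets were higher and 2 lower, or 4.81% of 540 against 2.58% of all. G protein subunits and Gq effectors held 9 higher of 115 probe sets and 1 lower, coronins, gelsolins and other actin proteins 5 higher of 96, potassium channels 4 higher of 72, the PI3K and Akt genes 1 of 85 and the Asb and Socs box genes 0 of 82. The median difference over the 540 was 0.06, beside -0.02 over all probe sets. Pik3r3 had 0.98, 0.52, 0.07 and 0.38 in mutant IVD, against -1.53, -2.05 and -1.16 in mutant vertebrae, a difference of 2.07 (SE 0.37, adjusted p = 0.121 by limma). It passed without mutant IVD 3 (difference 2.2, adjusted p = 0.0475 by limma), where 177 of all 45037 probe sets passed, against 7 with all arrays. Pfn2, a profilin that binds actin monomers, had 0.41, 0.39, 0.77 and 0.72 in mutant IVD, against -1.89, -1.16 and -0.56 in mutant vertebrae, a difference of 1.77 (SE 0.31, adjusted p = 0.112 by limma). Rgs2 differed by 1.88 (adjusted p = 0.238) and Kcnd3 by 1.38 (adjusted p = 0.212). In this comparison all 12 neuronal genes had a higher mean in mutant IVD (median difference 0.97), with array means from -0.70 to 3.08 in mutant IVD and from -0.87 to 0.41 in mutant vertebrae. Of 10 liver genes 9 were higher (median 1.13), as were 10 of 10 endothelial genes (median 0.30), and 12 of 12 cartilage genes were lower (median -1.27). Higher too were 9 of 12 fibrous tissue genes (median 0.97), 10 of 12 skeletal muscle genes (0.43) and 7 of 8 erythroid genes (0.58). Of 6 notochord genes 5 were lower (median -0.39). The part of these tissues in the differences was not tested.

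**Figure D4:**
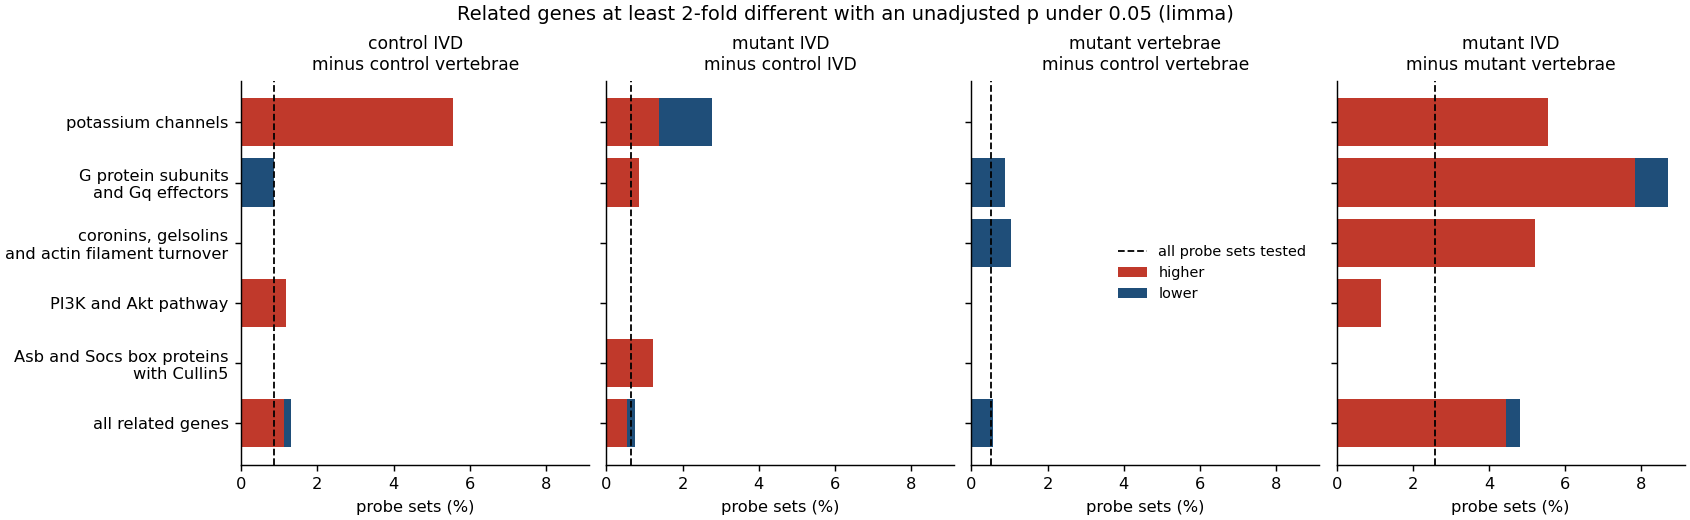
Share of the probe sets of 5 of the families and of all related genes (horizontal axis, percent) that differed by 2-fold or more and had an unadjusted p under 0.05 by limma, with higher and lower stacked and a dashed line for all 45037 probe sets. The share over all related genes is 4.81% for mutant IVD minus mutant vertebrae and at most 1.30% in the other 3 comparisons.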

How the data were processed

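Gene expression was measured on 13 Affymetrix mouse expression arrays, grouped by the sample titles. The authors subtracted background and normalized with RMA in GeneSpring, and deposited log2 values, which are centred so that the median of every probe set is 0. The values therefore carry no signal over background, a planned filter on dim probe sets could not be run, and precision is limited by the number of arrays. Probe sets were named from the platform annotation, with symbols updated through RefSeq: of 45037 probe sets without array controls, 34945 had 1 gene, 932 several and 9160 none.

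A model of the 4 groups was fitted with limma 3.58.1 in R 4.3.3 (lmFit, eBayes, two-sided, Benjamini-Hochberg over 45037 probe sets, all 13 arrays). It was run on simulated data with independent arrays, unlike the control pairs here, so that run does not test it for paired arrays. The genes described, the families and the marker lists were chosen with earlier results of these data known. Named relatives are the probe set with the smallest p per family, comparison and direction at the looser threshold. Kcnk2 was added after its values were seen. The results of 1 family on its own are not reported here, while the totals include it. The 3 genes most like each member were chosen by Pearson r.

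By the series design both control tissues of a replicate set were taken from the same mice, without saying which numbers share one. After removal of group means, control arrays of the same number correlated with r = 0.80, 0.57 and 0.57 and were taken as pairs (consensus correlation 0.538). The mutant pairs had r = -0.40, 0.24 and -0.15 and were not, although the sex-linked transcripts of mutant IVD and mutant vertebrae of the same number matched. The design calls the samples biological replicates, and how many embryos entered each is not given in the sources used here.

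Alternatives were fixed and random replicate blocks, quantile normalization, a fit of the 2 groups alone, the unequal-variance test of the methods, the mean of all probe sets of a gene, leaving out each array, and leaving out the arrays whose liver mean exceeded 1. The fixed block joined arrays of the same number over all 4 groups, so it also joined different genotypes and mutant tissues not taken as pairs. The random block used the control arrays alone.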

Additional observations from a re-analysis of the deposited data

How the results depend on the processing

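Over 28 differences of the 7 genes and 322 alternatives, 5 differences changed sign in 8 alternatives, all of them under 1 in size. The 13 differences of at least 1 kept their sign in all of their 150 alternatives. The genes were selected for large differences on these same arrays, so a kept sign was likely beforehand and is no separate support. The Kcnt2 difference between control tissues was 3.24 to 4.20. With the mean of all probe sets of a gene that difference was 1.30 for Arhgap24, 1.0 for Coro2b and -0.71 for Pik3r1, since their probe sets disagreed. For mutant IVD against control IVD the range was -2.73 to -1.18 for Kcnt2, -1.76 to -0.74 for Gna14, -1.90 to -0.89 for Arhgap24 and 0.91 to 1.47 for Asb4.

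Counts of related probe sets after adjustment were 0 except 1 with the random replicate block between control tissues (Kcnk2), and, for mutant IVD against mutant vertebrae, 1 without the liver arrays (Kcnk2) and 0 to 1 on leaving out an array (Pik3r3 without mutant IVD 3). Of all probe sets 29 passed there without the liver arrays and 177 without mutant IVD 3, against 7 with all arrays. At the looser threshold the count between control tissues was 7, but 3 by the unequal-variance test (256 of all probe sets met the threshold by it) and 4 with the gene mean. In mutant IVD against control IVD it was 4, but 7 with the fixed replicate block, 2 by the unequal-variance test, 12 without the liver arrays, 1 with the gene mean, and 2 (without control IVD 2) to 9 (without control IVD 1) on leaving out an array. Over all probe sets it was 290, but 507 without the liver arrays and 133 by the unequal-variance test. Among related probe sets it was 8 without mutant IVD 1 and 7 without control IVD 3, beside 460 and 336 of all probe sets. For mutant vertebrae against control vertebrae it was 3, but 1 after quantile normalization, 0 by the unequal-variance test, 1 with the gene mean, and 1 (without control vertebrae 1) to 10 (without control vertebrae 2) on leaving out an array. Over all probe sets it was 233, but 184 after quantile normalization and 55 by the unequal-variance test. It was 199 without control vertebrae 1, 538 without control vertebrae 2, and 81 of 18193 genes with the gene mean. Among related probe sets it was 8 without mutant vertebrae 2 and 6 without mutant vertebrae 3, beside 453 and 465 of all probe sets. In mutant IVD against mutant vertebrae it was 26, but 12 by the unequal-variance test (1164 and 566 of all probe sets). With the gene mean it was 10, beside 348 of 18193 genes. On leaving out an array it ran from 24 (without mutant IVD 3) to 41 (without mutant vertebrae 3), beside 1474 and 1729 of all probe sets. The gene mean tests fewer features. The cause of the other shifts was not tested. The replicate blocks changed no other call of a related probe set. In mutant IVD against mutant vertebrae the fixed block left 0 of the 7 calls over all probe sets. Mutant IVD 4 had no partner of its number, so that block set it aside, and leaving out this array alone also left 0. Thus the Kcnt2 difference of mutant IVD from control IVD was -1.965 both with the fixed block and without mutant IVD 4. The loss of calls is therefore not read as an effect of pairing.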
